A study of Mus musculus with 6 samples.

Results

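The 10 genes described here are outputs of the circadian clock and repressors that act on the E-box, and are Dbp, Tef, Hlf, Nfil3, Usp2, Ciart, Bhlhe40, Bhlhe41, Nr1d1 and Nr1d2. They were taken by name from the 32285 genes of the count table, and all 10 were among the 20021 genes left for testing by a minimum of 10 counts summed over the libraries. They were chosen by what they do in the clock and selected on their CPM in OIR-CIH against OIR-Norm in these same libraries, so their differences between the groups are a description. Fold changes with their errors, and whether a gene passed the thresholds set for all genes, are given as such, and none of them is independent evidence that a gene differs.

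Retinal RNA of C57BL/6J wild-type mice at postnatal day (PN) 18 was sequenced in bulk, in 3 OIR-CIH and 3 OIR-Norm libraries. Both groups went through oxygen-induced retinopathy (OIR), in which pups stayed with their mothers at 75% O2 from PN8 to PN13 and lost capillaries in the central retina. OIR-CIH pups then underwent chronic intermittent hypoxia (CIH) for 10 h of each day, in the hours in which mice sleep, in 266 cycles of 135 s that took cage O2 from 20.95% down to 5% and back. OIR-Norm pups had the gas flow and noise of the simulator at unchanged O2. The comparison addresses how CIH alters transcription in the ischemic retina. The clock time at which eyes were taken is not given in the sources used here. Since whole retinas were lysed, a change in the number of cells of a type and a change in RNA per cell cannot be told apart.

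In the circadian clock, CLOCK and BMAL1 (encoded by Arntl) bind E-boxes in DNA and activate genes that include their own repressors. The PAR bZIP factors DBP, TEF and HLF carry this rhythm onward by activating genes with a D-box, where NFIL3 acts as a repressor, while CIART (also CHRONO), BHLHE40 (DEC1) and BHLHE41 (DEC2) repress transcription from E-boxes. NR1D1 and NR1D2 (REV-ERB alpha and beta) repress at ROR elements, among them those of Arntl and Nfil3. The retina holds such a clock, and Bhlhe40 and Bhlhe41 are also known as genes induced by hypoxia.

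Stretches of the promoter windows that hold a match to a known clock motif are shown here. Promoter sequence was not searched to choose the genes. Known E-box targets are among them, however, so that E-box counts are not independent of the choice. A window without an E-box does not set a gene apart from E-box targets, since Dbp and Nr1d1 are such targets without a match. RefSeq windows on GRCm38.p6, from 250 bases before to 50 bases after an annotated start, were found for 9 of the 10 genes, in 10 windows since Tef has 2 starts. Bhlhe40 is named only. Each stretch is written 5′ to 3′ on the strand of its gene, and capitals mark an exact match on either strand to a searched motif. In Tef, Ciart and Bhlhe41 they mark the E-box, spelled CACGTG. In Nr1d1 they mark the reverse complement of the E-box-like motif, which is spelled CACGTT. In Nfil3 they mark the reverse complement of TAGGTCA, a half-site of the element that ROR and REV-ERB factors bind. The other half-site searched, TGGGTCA, was in none of the windows. The stretches of Tef were from chr15:81802534-81802563 and chr15:81811249-81811308 on the plus strand, and the others from the minus strand at chr3:95882252-95882478 for Ciart, chr6:145865559-145865600 for Bhlhe41, chr11:98775378-98775432 for Nr1d1 and chr13:52981040-52981063 for Nfil3.
Tef, first start: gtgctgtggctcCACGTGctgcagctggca
Tef, second start: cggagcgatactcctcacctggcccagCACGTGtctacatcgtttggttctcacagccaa
Ciart: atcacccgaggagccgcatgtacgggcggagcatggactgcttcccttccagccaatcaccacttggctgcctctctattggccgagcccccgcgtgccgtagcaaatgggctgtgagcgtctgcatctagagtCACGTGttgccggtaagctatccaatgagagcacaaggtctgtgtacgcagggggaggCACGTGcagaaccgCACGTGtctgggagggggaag
Bhlhe41: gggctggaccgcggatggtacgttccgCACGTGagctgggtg
Nr1d1: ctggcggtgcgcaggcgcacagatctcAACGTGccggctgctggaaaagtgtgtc
Nfil3: ggcgctcggaacTGACCTActaac

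Of the 10 windows, 4 held an E-box, those of Tef at both starts, Ciart and Bhlhe41, against 7.15% of all 32851 windows in the table. The 10 windows were 56.3% to 81.7% G and C, against a median of 52.7% over all windows. The shares over all windows given here were not matched for this. Ciart held 3 E-boxes, whose first bases lay 116, 58 and 44 bases upstream of the start, and 29 of all windows (0.0883%) held at least 3. The E-box of Bhlhe41 lay 153 bases upstream, and those of Tef 127 and 138 bases upstream of its 2 starts. In GENCODE M21 the first Tef match falls in an exon of a longer Tef transcript, the second lies within the gene between exons, and the matches of Ciart, Bhlhe41 and Nr1d1 lie upstream of every annotated exon of those genes. The Nr1d1 window held the E-box-like sequence 28 bases upstream, found in 4.68% of all windows. The half-site of Nfil3 began 12 bases upstream of the RefSeq start, in an exon of the GENCODE transcript, and 6.45% of all windows held 1. A D-box, searched as TTATGTAA and, with a central change, as TTACGTAA, was in none of the 10 windows, against 1.06% of all windows. No motif of those searched was in the windows of Dbp, Hlf, Usp2 or Nr1d2. These are matches of letters in a short window and say nothing of other sequence or of binding.

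**Figure D1:**
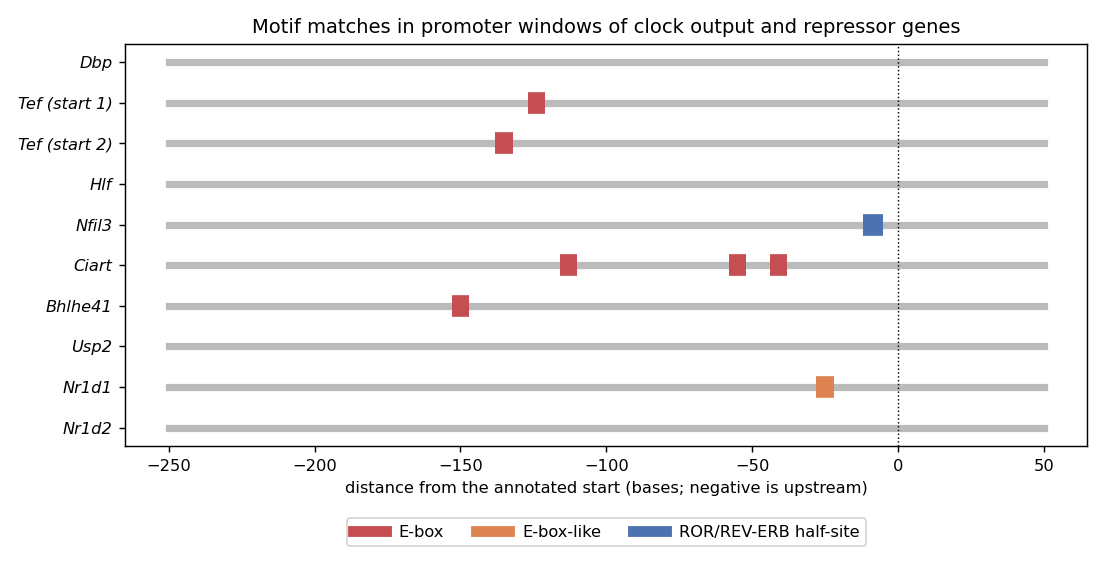
The horizontal axis is the distance in bases from the annotated start, and each grey bar is the 300-base RefSeq window of 1 gene or start, with coloured blocks at exact matches. Ciart holds 3 E-box matches, Tef 1 at each start and Bhlhe41 1, while Dbp, Hlf, Usp2 and Nr1d2 hold none of the motifs drawn.

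The total count was between 26289905 and 38010151 per library, and the counts of the 10 genes were between 379 and 10107. Values are in CPM, counts brought to a common library total with trimmed-mean (TMM) scaling. A gene was called when edgeR's quasi-likelihood test gave a Benjamini-Hochberg adjusted p under 0.05 and the log2 fold change of OIR-CIH over OIR-Norm was beyond 0.5 in either direction. Of the 20021 genes tested, 63 (0.315%) were called, 21 (0.105%) higher and 42 lower in OIR-CIH. The rod transducin transcript Gnat1, at 8430 to 11500 CPM, was high in every library, and RNA of both sexes was present in each, so that n counts libraries, and how many animals gave RNA to 1 library cannot be told. Transcripts of 6 lens genes summed to 378 CPM in OIR-Norm replicate 2 and to between 12.9 and 59.3 CPM in the other 5 libraries.

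In the OIR-CIH libraries the E-box repressors Ciart, Bhlhe40 and Bhlhe41, the D-box repressor Nfil3 and the deubiquitinase gene Usp2 stood higher than in the OIR-Norm libraries, by 24.6% to 72.9% of the OIR-Norm mean, and the PAR bZIP and REV-ERB genes differed by -3.17% to 13.2%. Ciart and Bhlhe40 were called, both higher in OIR-CIH, and 0 of the 10 were called lower, set beside the 0.315% of all genes called in either direction and the 0.105% called higher. In 7 of the 10 genes the 3 OIR-CIH values all lay above the 3 OIR-Norm values, and in the other 3 (Hlf, Nr1d1 and Nr1d2) the groups overlapped. Among all genes tested the groups lay apart in 18.4%, and in 9.12% with OIR-CIH higher. Since the genes were proposed from this comparison, nothing is read from these shares. The log2 fold changes were between -0.05 and 0.79 with a median of 0.25, and the median over all genes tested was -0.01. Summed over the 10 genes, the level was 1150 to 1260 CPM in OIR-CIH and 1050 to 1110 CPM in OIR-Norm.

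**Figure D2:**
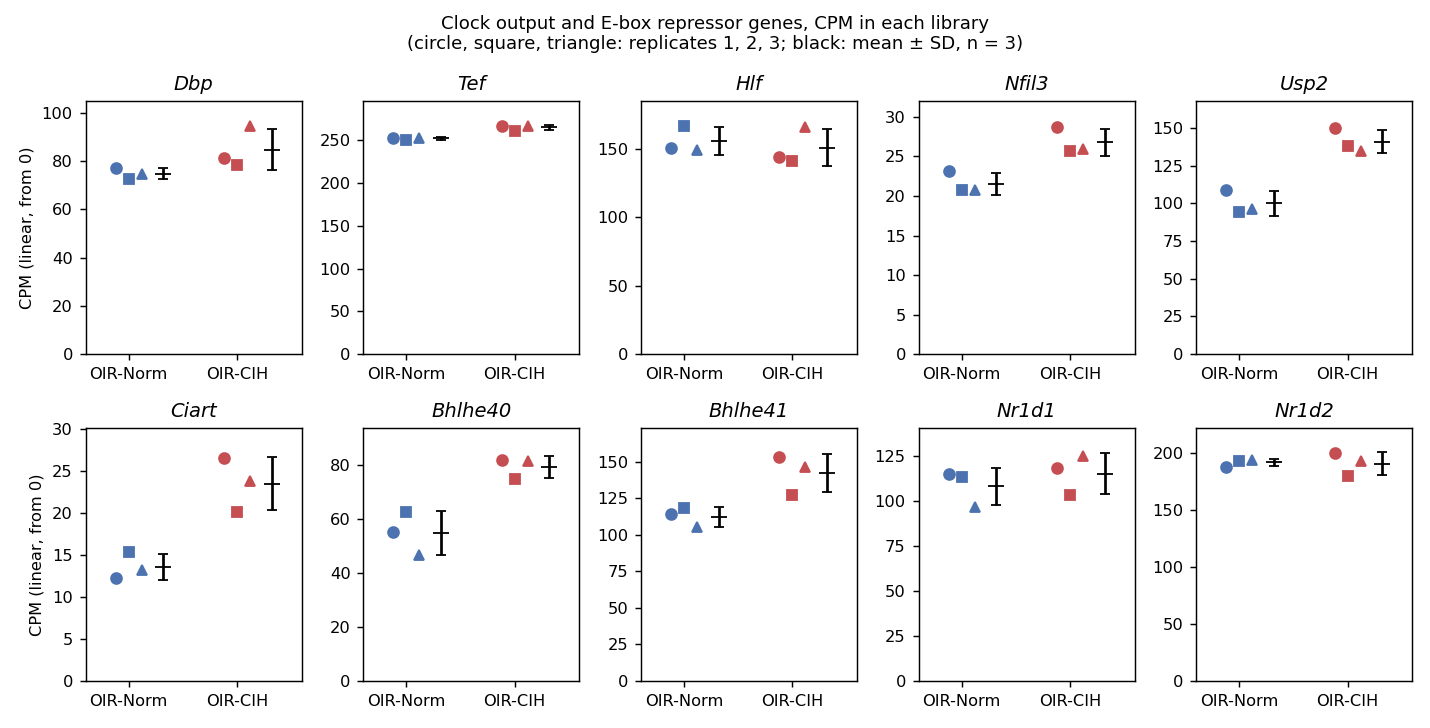
Each panel is 1 gene with CPM on a linear axis from 0, points for the 3 libraries of each group and black bars for mean ± SD. The OIR-CIH points of Ciart (20.1 to 26.5 CPM), Bhlhe40 (74.7 to 81.9 CPM) and Usp2 (135 to 150 CPM) lie above all OIR-Norm points, while those of Hlf, Nr1d1 and Nr1d2 overlap them.

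Ciart, whose product represses CLOCK and BMAL1 at E-boxes, had the largest log2 fold change of the 10. It was at 26.5, 20.1 and 23.8 CPM in OIR-CIH replicates 1, 2 and 3 and at 12.3, 15.3 and 13.2 CPM in OIR-Norm replicates 1, 2 and 3. The lowest OIR-CIH library thus lay above the highest OIR-Norm library, and the mean was 23.5 ± 3.19 CPM against 13.6 ± 1.54 CPM (SD, n = 3), a difference of 72.9%. The log2 fold change was 0.79 ± 0.12 (standard error), with a 95% interval of 0.55 to 1.03. The gene lies on chromosome 3 at 95878503 to 95882251, minus strand (GRCm38, GENCODE M21). Of the 9 genes with a window it held the most E-boxes, the 3 shown above. Whether the number of E-boxes goes with the fold change was not tested.

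Bhlhe40, a basic helix-loop-helix repressor that binds E-boxes, was at 81.9, 74.7 and 81.5 CPM in OIR-CIH and at 55.3, 62.7 and 46.5 CPM in OIR-Norm. All 3 OIR-CIH libraries lay within a narrow band above the wider OIR-Norm band, and the means were 79.4 ± 4.06 and 54.9 ± 8.13 CPM (SD, n = 3). Its log2 fold change was 0.53 ± 0.10, a difference of 44.7% in the means. Bhlhe40 lies on chromosome 6 at 108660629 to 108666925 and Bhlhe41 on the same chromosome at 145858243 to 145865558. Its paralog Bhlhe41, which represses in the same way, was at 153, 127 and 146 CPM in OIR-CIH and at 114, 118 and 105 CPM in OIR-Norm. The groups lay apart, with OIR-CIH replicate 2 nearest to the OIR-Norm libraries. The log2 fold change of Bhlhe41 was 0.34 ± 0.08, and it was not called. Per kb of exon, Bhlhe40 stood at 0.767, 0.837 and 0.798 times the level of Bhlhe41 in the OIR-CIH libraries and at 0.693, 0.758 and 0.634 times in the OIR-Norm libraries. This ratio, which does not depend on library size, was 0.801 ± 0.035 against 0.695 ± 0.0619 (SD, n = 3), higher in OIR-CIH with no overlap.

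Usp2 encodes a deubiquitinase that oscillates with the clock in many tissues. It was at 150, 138 and 135 CPM in OIR-CIH and at 109, 94.3 and 96.6 CPM in OIR-Norm. The groups were well apart, with means of 141 ± 7.78 and 100 ± 8.02 CPM (SD, n = 3), a difference of 41.2%. Its log2 fold change of 0.498 ± 0.08 fell just short of the 0.5 asked of a call, and that of Bhlhe40, at 0.534, lay just past it, so the 2 genes differ in call and hardly in size. By edgeR's quasi-likelihood test the adjusted p was 0.02 for Usp2 and 0.0494 for Bhlhe40, just under the threshold.

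Nfil3, the repressor at D-boxes, was at 28.7, 25.7 and 25.9 CPM in OIR-CIH and at 23.1, 20.7 and 20.7 CPM in OIR-Norm. Every OIR-CIH library was above every OIR-Norm library, and in both groups replicate 1 was the highest. The log2 fold change was 0.32 ± 0.09, a difference of 24.6% in the means, and the gene was not called.

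The 3 PAR bZIP activators, which share the D-box with NFIL3, differed less. Dbp, which CLOCK and BMAL1 drive directly, was at 81.2, 78.5 and 94.3 CPM in OIR-CIH and at 77.2, 72.6 and 74.6 CPM in OIR-Norm. Its groups lay apart narrowly, and OIR-CIH replicate 3 stood well above the rest. The log2 fold change of Dbp was 0.18 ± 0.08, and 0.09 without OIR-CIH replicate 3. Tef was at 266, 261 and 267 CPM in OIR-CIH and at 253, 250 and 253 CPM in OIR-Norm. Relative to its level its libraries were the closest to each other of the 10 genes, with an SD within groups of 0.01 on the log2 scale, and the groups lay apart by a difference of only 4.92% in the means, a log2 fold change of 0.07 ± 0.07. Hlf was at 144, 141 and 166 CPM in OIR-CIH and at 151, 167 and 149 CPM in OIR-Norm, with 1 high library in each group and full overlap. Its log2 fold change was -0.05 ± 0.08, with a 95% interval of -0.21 to 0.12. None of the 3 was called.

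Since NFIL3 and the PAR bZIP factors compete for the same sites, their levels were also set against each other within each library, per kb of exon. Tef stood at 2.38, 2.62 and 2.66 times Nfil3 in OIR-CIH and at 2.82, 3.12 and 3.15 times in OIR-Norm. For Hlf the ratio was 1.52, 1.67 and 1.95 in OIR-CIH and 1.98, 2.45 and 2.17 in OIR-Norm. Both ratios were lower in every OIR-CIH library than in every OIR-Norm library, with means of 2.55 ± 0.149 against 3.03 ± 0.179 for Tef and 1.71 ± 0.215 against 2.20 ± 0.237 for Hlf (SD, n = 3). Dbp stood at 1.91, 2.07 and 2.46 times Nfil3 in OIR-CIH and at 2.26, 2.38 and 2.43 times in OIR-Norm, where OIR-CIH replicate 3 exceeded all OIR-Norm libraries and the groups overlapped. RNA levels alone were compared, and protein was not measured.

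Both REV-ERB genes had overlapping groups. Nr1d1, itself an E-box target, was at 118, 103 and 125 CPM in OIR-CIH and at 115, 113 and 96.3 CPM in OIR-Norm, with overlapping groups and a log2 fold change of 0.09 ± 0.09. Nr1d2 was at 200, 180 and 193 CPM in OIR-CIH and at 188, 193 and 194 CPM in OIR-Norm. The means of Nr1d2 differed by -0.27%, and the 95% interval of its log2 fold change was -0.14 to 0.14. That of Nr1d1 was -0.09 to 0.28. The ratio of Nr1d1 to Nr1d2 per kb of exon was between 1.01 and 1.14 in OIR-CIH and between 0.873 and 1.07 in OIR-Norm.

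**Figure D3:**
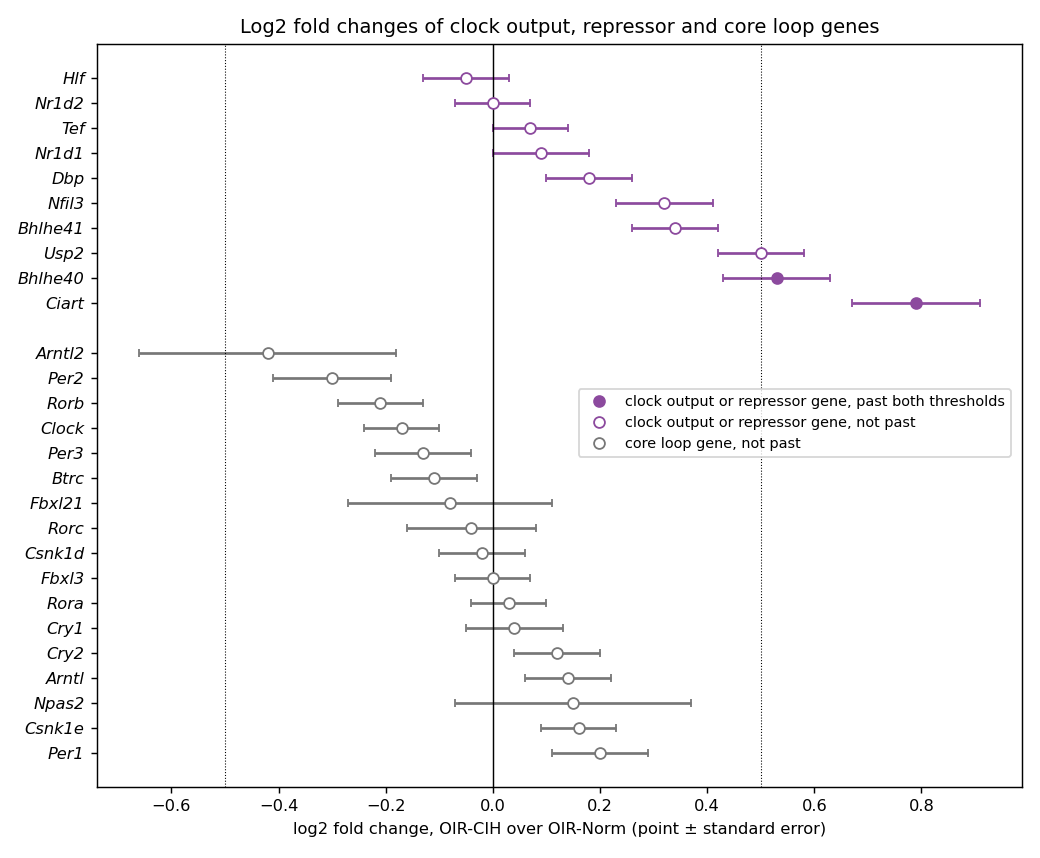
Points are log2 fold changes of OIR-CIH over OIR-Norm with bars of 1 standard error, for the 10 clock output and repressor genes in purple and the 17 core loop genes in grey, and dotted lines mark 0.5 in each direction. Filled points, Ciart at 0.79 and Bhlhe40 at 0.53, are past both thresholds, and the core loop genes run from -0.42 to 0.20.

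Levels of the 10 genes relative to each other were compared in OIR-Norm as CPM per kb of exon, with exon lengths of GENCODE M21. Nr1d2 (35.5 ± 0.594), Nr1d1 (35.2 ± 3.34) and Tef (32.1 ± 0.225, SD, n = 3) were at the top, and neighbours among these 3 did not differ beyond their spread. Dbp, Hlf and Usp2 followed at 25.0 ± 0.771, 23.3 ± 1.52 and 20.8 ± 1.66 CPM per kb, again with overlapping neighbours. Bhlhe41 at 16.7 ± 1.03 CPM per kb lay apart from both its neighbours. Bhlhe40 (11.7 ± 1.73) and Nfil3 (10.6 ± 0.687) overlapped, and Ciart was lowest at 6.01 ± 0.682 CPM per kb, which was still above 63.7% of all genes tested. The repressors of the E-box and the D-box thus held the 4 lowest places, and in OIR-CIH Ciart, at 10.4 ± 1.41 CPM per kb, remained the lowest of the 10.

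Within the groups, deviations from the group mean of log2(CPM + 0.5) showed which libraries carried these genes high or low together. OIR-CIH replicate 2 was the lowest of its group for 9 of the 10 genes, the exception being Usp2, and it was the lowest for 35.0% of 14800 genes with a mean of at least 1 CPM. Its median deviation was -0.09 over the 10 genes and -0.01 over all. OIR-CIH replicate 1 was the highest for 6 of the 10 and replicate 3 for 4. In OIR-Norm no library stood out in this way, with replicate 1 the highest for 5 genes, replicate 2 for 4 and replicate 3 for 1. OIR-Norm replicate 3 was the lowest for Bhlhe40 and Bhlhe41, and replicate 2, the library with lens transcripts, was the highest for both and for Ciart. Without OIR-Norm replicate 2 the log2 fold changes of Ciart, Bhlhe40 and Bhlhe41 were 0.88, 0.64 and 0.38, and Ciart and Bhlhe40 were called.

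**Figure D4:**
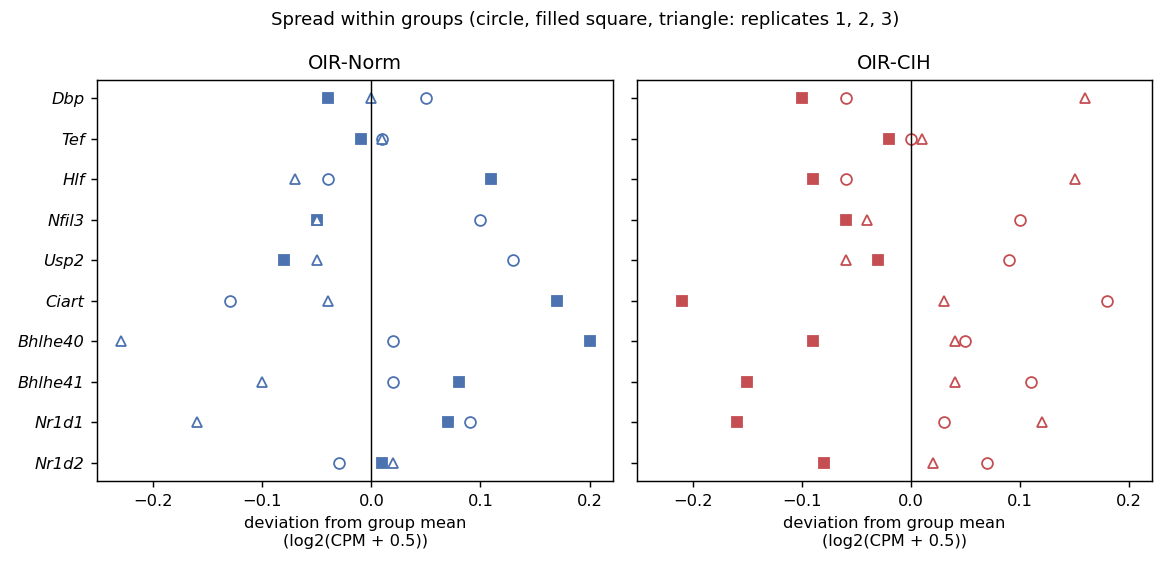
The horizontal axis is the deviation of each library from its group mean in log2(CPM + 0.5), with OIR-Norm on the left, OIR-CIH on the right and replicates 1, 2 and 3 as circles, filled squares and triangles. The squares of OIR-CIH replicate 2 lie left of the other 2 libraries for 9 of 10 genes, down to -0.21 for Ciart.

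The calls changed when 1 library was left out, which also leaves fewer libraries to the test. Ciart was called in 3 of the 6 fits that left out 1 library, with log2 fold changes of 0.70 to 0.89, and Bhlhe40 in 1 of the 6, with 0.43 to 0.64. Usp2 was called in 2 of them, those without OIR-CIH replicate 3 (0.52) and without OIR-Norm replicate 1 (0.56), and without OIR-CIH replicate 1 none of the 10 was called. The direction of the 7 genes whose groups lay apart was the same in all 6 fits. Leaving 1 library out of groups that lie apart cannot turn their direction, so nothing is read from this.

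The other genes of the clock gave no call in either direction. Of 17 core loop genes, all tested, 0 were called by edgeR, by DESeq2 or by limma, the lowest adjusted p by edgeR's quasi-likelihood test was 0.296, and 5 had an unadjusted p under 0.05, 2 higher and 3 lower. Their log2 fold changes were between -0.42 and 0.20 with a median of -0.02. Over all 20021 genes tested, 2682 had an unadjusted p under 0.05 by edgeR's quasi-likelihood test, to be set beside such counts. The activators Arntl (0.14 ± 0.08), Clock (-0.17 ± 0.07) and Npas2 (0.15 ± 0.22) did not move as 1 group in log2 fold change. Clock was at 138, 149 and 151 CPM in OIR-CIH and at 161, 162 and 169 CPM in OIR-Norm, lower in all 3 OIR-CIH libraries, at an adjusted p of 0.343 by edgeR.

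The period genes, whose products repress CLOCK and BMAL1 together with the cryptochromes, lay on both sides of 0. Per1 was at 122, 114 and 116 CPM in OIR-CIH and at 108, 111 and 88.2 CPM in OIR-Norm, with a log2 fold change of 0.20 ± 0.09 and an adjusted p of 0.368 by edgeR. Per2 was at 17.1, 20.1 and 21.3 CPM in OIR-CIH and at 21.9, 26.8 and 23.5 CPM in OIR-Norm, with a log2 fold change of -0.30 ± 0.11 and an adjusted p of 0.296 by edgeR. Both sets of groups lay apart, in opposite directions, and neither passed the threshold. Per3 (-0.13 ± 0.09), Cry1 (0.04 ± 0.09) and Cry2 (0.12 ± 0.08) had overlapping groups.

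Ciart, Dbp and Nr1d1 belong with Per1 and Per2 to the genes that CLOCK and BMAL1 activate, and set side by side their log2 fold changes were 0.79, 0.18, 0.09, 0.20 and -0.30. Of these 5, only Ciart was called. The 5 are not all targets of CLOCK and BMAL1, and Bhlhe40 (0.53, called) and Bhlhe41 (0.34, not called) were not set among them. Of 16 other rhythmic or glucocorticoid-responsive genes, 0 were called by edgeR, DESeq2 or limma, and 2 had an unadjusted p under 0.05. Those were Klf9, a zinc finger factor that both the clock and glucocorticoids induce, at a log2 fold change of 0.32 ± 0.08 and an adjusted p of 0.162 by edgeR, and Ppara, a nuclear receptor of lipid metabolism, at -0.26 ± 0.11 and 0.351. Klf9 was at 327 to 369 CPM in OIR-CIH and at 264 to 296 CPM in OIR-Norm.

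Bhlhe40 and Bhlhe41 can also be set beside other genes known to respond to hypoxia. Of 17 such genes, 1 was called, Ankrd37, an ankyrin repeat gene induced by hypoxia-inducible factor, with a log2 fold change of 0.67 ± 0.09 and an adjusted p of 0.00499 by edgeR's quasi-likelihood test. It was at 36.5, 34.8 and 33.5 CPM in OIR-CIH and at 20.2, 22.8 and 22.9 CPM in OIR-Norm. Over the 17 genes the log2 fold changes were between -0.09 and 0.67 with a median of 0.20, and DESeq2 and limma also called 1. The groups lay apart in 8, in each with OIR-CIH higher, against 9.12% of all genes tested. An unadjusted p under 0.05 by edgeR was seen for 6, all higher, beside 2682 of all 20021 genes tested. The 0.53 of Bhlhe40 lay inside this range, below Ankrd37 and above the 16 others, and the 0.34 of Bhlhe41 lay above the median.

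Markers of other cells were counted beside these differences. Counts of an unadjusted p under 0.05 by edgeR stand against 2682 of all 20021 genes tested. Counts of groups apart with OIR-CIH higher stand against 9.12% of them. Of 9 pigment epithelium markers 0 were called by edgeR, DESeq2 or limma, 5 had an unadjusted p under 0.05, all higher in OIR-CIH, and the summed level of the 9 was 361 to 522 CPM in OIR-CIH and 230 to 435 CPM in OIR-Norm. The list did not move 1 way, with log2 fold changes between -0.88 and 0.80 and the other 4 markers below 0, among them the pigment cell genes Pmel (-0.78 ± 0.36) and Mlana (-0.88 ± 0.44). Rpe65, which defines that epithelium, was at 33.9 to 61.4 CPM in OIR-CIH and at 23.0 to 38.9 CPM in OIR-Norm, and none of the 9 was at 0. OIR-CIH replicate 1 and OIR-Norm replicate 1 were the highest of their groups for Rpe65, as they were for Nfil3 and Usp2. For Ciart, Bhlhe40 and Bhlhe41 the highest library was replicate 1 in OIR-CIH and replicate 2 in OIR-Norm. For Pmel and Mlana it was replicate 3 in OIR-CIH and replicate 1 in OIR-Norm. Of 7 rod markers 0 were called by edgeR, DESeq2 or limma, the log2 fold changes were all above 0, between 0.04 (Gnat1) and 0.34 with a median of 0.19, and the groups lay apart in 3, with OIR-CIH higher. Nrl, the factor that specifies rods, had a log2 fold change of 0.34 ± 0.12 and an adjusted p of 0.291 by edgeR, and Crx, a photoreceptor transcription factor, 0.26 ± 0.10 and 0.308, and these 2 had an unadjusted p under 0.05. The 7 markers summed to 23600 to 27100 CPM in OIR-CIH and to 20100 to 26500 CPM in OIR-Norm. Of 6 microglial markers 0 were called by edgeR or limma and 1 by DESeq2, 2 had an unadjusted p under 0.05, both lower, and their sum was 57.5 to 69.6 CPM in OIR-CIH and 68.5 to 81.8 CPM in OIR-Norm. Of the lists of 6 lens, 3 blood, 5 Müller glia, 4 bipolar, 4 amacrine, 4 ganglion and 4 endothelial markers 0 were called by edgeR, DESeq2 or limma, and an unadjusted p under 0.05 was seen for 3 lens markers, all lower, and for at most 1 of each other list. The part of these cells in the levels of the clock genes was not tested.

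Some of the 10 genes share exonic bases with a gene on the other strand. Dbp shares 539 bases with Sphk2 and Nr1d1 shares 263 with Thra, whose counts of 7357 to 13304 exceed those of Nr1d1. Bhlhe41 shares 1280 bases with a gene model that has no entry in the table, and the shared stretches of Tef, Bhlhe40 and Usp2 were of 193, 118 and 200 bases with genes of at most 62 counts. Ciart, Hlf, Nfil3 and Nr1d2 share none. The library kit keeps strand, and which strand was counted is not given in the sources used here.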

How the data were processed

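RNA libraries of mouse retina at PN18, 3 from OIR-CIH and 3 from OIR-Norm, were re-analysed. They were made from 250 ng of total RNA with a stranded poly(A) kit. The authors aligned reads with STAR 2.7.9a and deposited raw counts per gene, in 1 table without normalization. The submitters' processing notes name GRCm38, while the study's text names a later Ensembl release, and 32158 of 32285 gene identifiers matched GENCODE M21 (GRCm38), from which symbols and exon lengths were taken. The authors removed genes with a total count below 10 and ran DESeq, with thresholds of 0.05 on the adjusted p and 0.5 on the absolute log2 fold change.

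Here the counts were fitted with the same filter and thresholds by edgeR 4.0.16 (quasi-likelihood, TMM scaling) in R 4.3.3, with Benjamini-Hochberg adjustment over 20021 genes and group as the only term. The standard error is the absolute log2 fold change divided by the square root of the F statistic, and the group mean, SD and n are over libraries. The labels speak of eyes and do not tie libraries to separate animals, so p-values measure the spread between these libraries, which may be technical. Groups lay apart when the lowest library of 1 group was above the highest of the other.

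Alternatives were median-of-ratios scaling, all genes with at least 1 count, at least 1 CPM in 3 libraries, DESeq2 1.42.0, limma 3.58.1 on log2(CPM + 0.5), the legacy quasi-likelihood fit, a block on the replicate number, and each library left out. Deviations of same-numbered libraries from their group means correlated at 0.162, 0.143 and -0.238 over 14800 genes, so that the numbers were not taken to pair the libraries. Replicates differed by more than counting noise, with a chi-square of 10.8 to 21.9 per gene. The scripts were tested on simulated data.

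The 10 genes and the gene lists were chosen with earlier results of these data known. Genes named are the 10, 8 core loop genes (Arntl, Clock, Npas2, Per1, Per2, Per3, Cry1 and Cry2) and, of each other list, the called genes or, with none called, the 2 with the lowest p. Of the marker lists Gnat1, Nrl, Crx, Rpe65, Pmel and Mlana are named, chosen after their values were seen, and 1 rod marker is not reported here. Motifs were searched in RefSeq promoter windows, and bases in an annotated UTR were trimmed from the printed stretches beyond 12 bases either side of a match. Comparison of the protein sequences was not analysed here.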

Additional observations from a re-analysis of the deposited data

How the results depend on the processing

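Scaling by median of ratios gave the same 63 calls as TMM. Every gene's log2 fold change among the 10 moved by less than 1 SD of its replicate spread under all alternatives. Leaving 1 of 3 libraries out shifts a group mean by less than that SD, and the other alternatives refit the same libraries. This outcome was thus largely fixed in advance, and nothing is read from it. DESeq2 called 132 genes in all, with the 63 among them, of which 25.8% were higher in OIR-CIH against 33.3%. Leaving out 1 library gave between 29 genes (without OIR-CIH replicate 1) and 97 (without OIR-Norm replicate 3), and between 0 and 2 of the 10 clock genes. With at least 1 CPM in 3 libraries 1 of the 10 was called, Ciart, and Bhlhe40 no longer. With a replicate block 0 of the 10 were called, and 68 genes in all, 48 of them shared with the fit without it, 42.6% of them higher. Whether the number marks anything shared by libraries is not given, and the cause of these shifts was not tested. Testing every gene with at least 1 count called Usp2 as well, among 77 genes. The core loop and the other rhythmic genes gave 0 calls in each of these fits and leave-outs, and Ankrd37 alone of the hypoxia genes was called. At these depths precision is limited by the number of libraries, 3 in each group.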
